A study of Mus musculus with 6 samples.

Results

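The genes described here encode the acid and ammonia transport machinery of the intercalated cell, the acid-base cell of the collecting duct. They are the vacuolar proton pump (V-ATPase) subunits Atp6v1b1, Atp6v0a4, Atp6v1g3, Atp6v0d2 and Atp6v1c2, the transcription factor Foxi1, and the ammonia transporters Rhbg and Rhcg. These 8 genes were taken by name from 25805 listed genes, and all 8 passed the filter on low values. Kidney RNA was sequenced in 6 mouse libraries, 3 labelled CXCR2 knockout and 3 labelled WT. Kidneys of both labels had undergone ischaemia-reperfusion injury (IRI), in which the blood supply is stopped and then restored. Uninjured kidneys are not among these libraries. The labels used here give no strain, age, length of ischaemia or time of sampling, and do not say in which cells the gene was deleted. Nothing in the labels ties a library to an animal of its own, so the p-values reflect variation among these libraries only, part of which may be technical.

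Intercalated cells balance the body's acid. Type A cells pump protons into the urine with an apical V-ATPase and return bicarbonate to the blood through the exchanger AE1, while type B cells secrete bicarbonate through pendrin. The pump has a V1 part that splits ATP and a V0 part that carries protons through the membrane, and intercalated cells use forms of several subunits that most cells lack. Foxi1 is the transcription factor that mouse intercalated cells need to form, and Rhbg and Rhcg carry ammonia, the main carrier of excreted acid, across the cells of the distal nephron. Human mutations of ATP6V1B1, ATP6V0A4 and FOXI1 cause distal renal tubular acidosis, in which the collecting duct fails to acidify urine.

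Each deposited value is a gene's reads after division by the size factor of its library, called a normalized count below, and the libraries held 15518083 to 20356601 reads. Cxcr2 was not lower under the knockout label, at 98.0, 36.8 and 56.6 normalized counts in labelled-knockout libraries 1 to 3 against 15.9, 88.8 and 56.9 in wild-type libraries 1 to 3 (log2 fold change 0.43, limma adjusted p = 0.841). Each value covers all exons of a gene, and reads from exons that a deletion leaves in place say nothing about the genotype, so "labelled knockout" is used throughout. On the first principal component labelled-knockout library 1 lay at -86.0 and the other 5 libraries between 4.16 and 27.3. On the second, labelled-knockout library 3 lay at -57.3 and the others between -12.8 and 33.6. Umod, the uromodulin of the thick limb, was abundant in every library, at 15277 to 58056 normalized counts. Kidney markers were not all even, and Aqp2, a water channel of the collecting duct, had 937 in labelled-knockout library 3 and 5076 to 13446 in the other 5 libraries.

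No difference between the labels passed the test for any of the 8 genes. What the data show is a wide spread within the labelled-knockout group that most of the genes shared: library 3 was the lowest of all 6 libraries for 7 of the 8 genes, where 16.4% of the 21721 tested genes had it lowest. Library 1 was the highest for 6 of the 8, against 28.4% of tested genes, and 5 of the 8 had both extremes, against 6.12%. Among tested genes at or above the lowest mean of the 8, library 3 was lowest for 16.1% and library 1 highest for 33.8%. Rhbg and Rhcg varied most, 11.4-fold and 9.52-fold between these libraries, and Foxi1 (1.55-fold) and Atp6v0a4 (1.59-fold) least. In bulk kidney RNA fewer intercalated cells and less RNA per cell cannot be told apart, and the labels do not say which portion of the kidney was taken.

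**Figure D1:**
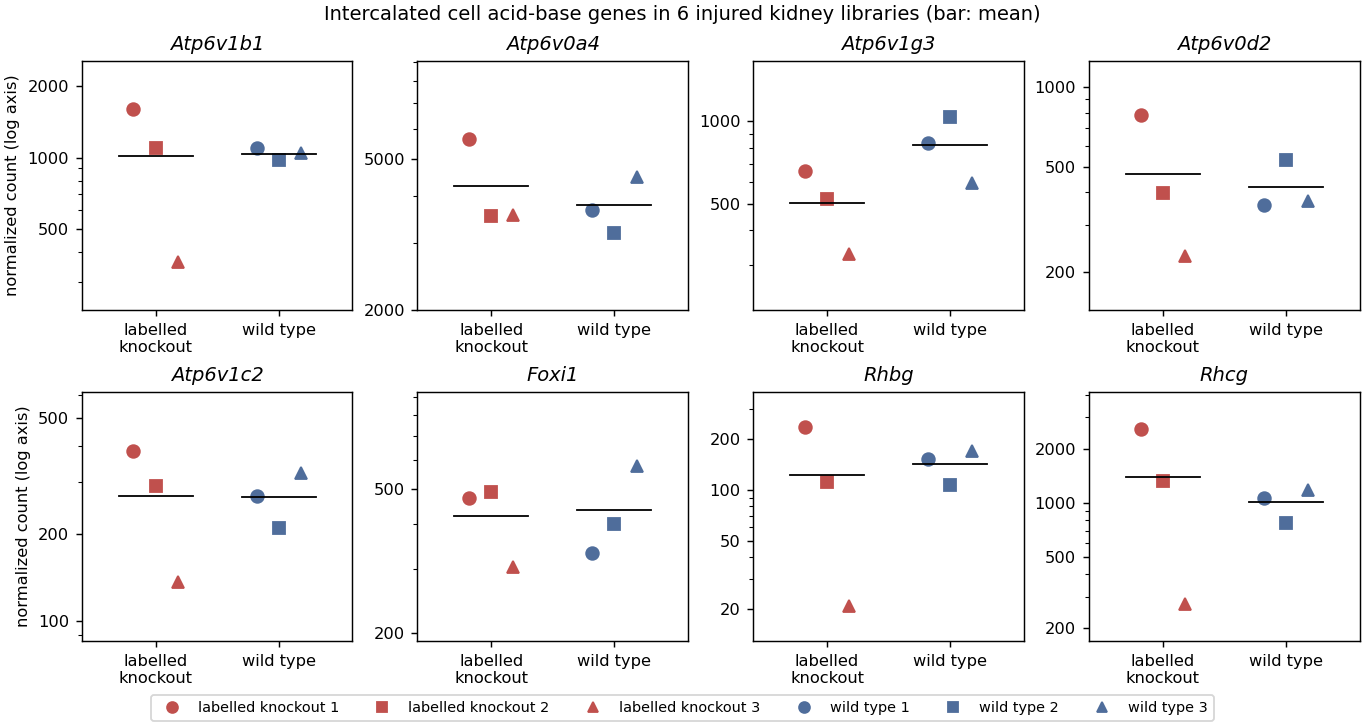
Normalized counts (log axis) of the 8 genes in each library, labelled knockout on the left and wild type on the right of each panel, with the symbol giving the library number and the bar the mean. Labelled-knockout library 3 (triangle) is the lowest point for 7 genes, from 20.6 for Rhbg to 363 for Atp6v1b1, and Atp6v0a4 is the exception.

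Atp6v1b1 encodes the B1 subunit of the V1 part, one of the subunits that form its ATP-binding sites. The gene lies on chromosome 6 from 83742990 to 83758855 (mm10, plus strand). It had 1596, 1102 and 363 normalized counts in labelled-knockout libraries 1 to 3, against 1099, 972 and 1042 in wild-type libraries 1 to 3. The wild-type libraries were within 1.13-fold of each other, whereas labelled-knockout library 3 stood 2.86-fold below their mean and library 1 stood 1.54-fold above it. The mean was 1020.4 ± 620.4 under the knockout label and 1038 ± 63.5 in wild type (SD, n = 3 each). As a log2 fold change, labelled knockout over wild type, this came to -0.27 with an SE of 0.50 (95% interval -1.45 to 0.92; limma adjusted p = 0.882).

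Promoters are shown for Atp6v1b1, whose level varied widely among the labelled-knockout libraries, and for Atp6v0a4, the pump subunit whose level varied least. Each window runs from 250 bases before to 50 bases after the RefSeq start (GRCm38.p6, the assembly of mm10), at chr6:83742767-83743066 on the plus strand and chr6:38124537-38124836 on the minus strand. Capitals mark the forkhead letters TGTTTAC, searched on both strands (GTAAACA on the other).
Atp6v1b1: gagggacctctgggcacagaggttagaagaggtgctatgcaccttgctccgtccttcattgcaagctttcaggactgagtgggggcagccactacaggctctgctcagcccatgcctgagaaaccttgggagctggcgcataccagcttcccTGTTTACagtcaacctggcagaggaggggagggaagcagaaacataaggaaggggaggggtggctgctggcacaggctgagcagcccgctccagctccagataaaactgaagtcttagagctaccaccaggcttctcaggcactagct
Atp6v0a4: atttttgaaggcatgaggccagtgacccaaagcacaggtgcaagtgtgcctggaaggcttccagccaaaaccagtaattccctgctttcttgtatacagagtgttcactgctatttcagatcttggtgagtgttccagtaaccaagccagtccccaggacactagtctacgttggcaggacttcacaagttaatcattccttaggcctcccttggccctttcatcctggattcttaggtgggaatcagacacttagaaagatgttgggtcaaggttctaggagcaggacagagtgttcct
The letters begin at position -98 relative to the start in Atp6v1b1, on the strand of the gene. Of the 6 genes matched by symbol to a RefSeq promoter, only Atp6v1b1 held them (the others were Atp6v0a4, Atp6v1c2, Atp6v1g3, Foxi1 and Rhcg), and 3.65% of 32851 mouse promoter windows of this length hold them. Rhcg, whose window held no match, differed 9.52-fold between labelled-knockout libraries 1 and 3, against 4.39-fold for Atp6v1b1. A match is a description of the sequence and shows no binding, and a link between these letters and the spread was not tested.

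The remaining V1 members are Atp6v1g3 and Atp6v1c2, which encode the G3 and C2 subunits, parts of the stalks that join V1 to V0. Atp6v1g3 (chromosome 1, 138273738 to 138289462, plus strand) had 659, 522 and 327 normalized counts in labelled-knockout libraries 1 to 3, against 833, 1038 and 594 in wild-type libraries 1 to 3. Of the 8 genes it was the only one whose 3 labelled-knockout values all lay below the wild-type mean, though library 1 was above wild-type library 3. Its mean was 503 ± 167 under the knockout label and 822 ± 222 in wild type (SD, n = 3 each), and the log2 fold change, -0.73 with an SE of 0.30 (95% interval -1.40 to -0.05), did not pass (limma unadjusted p = 0.0373, adjusted p = 0.467). The gene is on the chromosome of Cxcr2, 64.1 Mb away. Atp6v1c2 (chromosome 12, 17284721 to 17329359, minus strand) had 383, 290.5 and 137 normalized counts in labelled-knockout libraries 1 to 3, against 269, 209 and 323 in wild-type libraries 1 to 3. Its labelled-knockout range enclosed the wild-type range, and the log2 fold change was close to 0 (-0.08, SE 0.38, limma adjusted p = 0.955). It overlaps Pdia6 on the other strand by 50 exonic bases.

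Atp6v0a4 and Atp6v0d2 encode the a4 and d2 subunits of V0, a4 lining the path of the protons and d2 joining V0 to the central stalk. Atp6v0a4 (chromosome 6, 38048483 to 38124586, minus strand) had 5653, 3532 and 3557 normalized counts in labelled-knockout libraries 1 to 3, against 3671, 3198 and 4488 in wild-type libraries 1 to 3. It was the most abundant of the 8 genes and the only one not lowest in labelled-knockout library 3, whose value lay inside the wild-type range (log2 fold change 0.14, SE 0.23, limma adjusted p = 0.851). It shares 259 exonic bases with D630045J12Rik on its own strand and 62 with Tmem213 on the other, and strand use in counting is not stated, so part of its count is uncertain. The part of other kidney cells in the level of Atp6v0a4 was not tested. Atp6v0d2 (chromosome 4, 19876841 to 19922605, minus strand) had 786, 399 and 228 normalized counts in labelled-knockout libraries 1 to 3, against 357, 530 and 371 in wild-type libraries 1 to 3. Its labelled-knockout libraries differed 3.44-fold and enclosed the wild-type range (log2 fold change 0.01, SE 0.42, limma adjusted p = 0.997). Macrophages and osteoclasts also use d2. The summed level of 10 macrophage markers was 8757, 3829 and 4927 normalized counts in labelled-knockout libraries 1 to 3, against 5180, 9374 and 6100 in wild-type libraries 1 to 3, with none of the 10 at 0 in any library. Labelled-knockout library 1 and wild-type library 2 were the top libraries of their label for both Atp6v0d2 and this sum, and the part of macrophages in the level of Atp6v0d2 was not tested.

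Foxi1 (chromosome 11, 34204338 to 34208089, minus strand) had 471, 489 and 304 normalized counts in labelled-knockout libraries 1 to 3, against 332, 399 and 579 in wild-type libraries 1 to 3. Labelled-knockout library 3 was the lowest, but stood only 1.44-fold below the wild-type mean and close to wild-type library 1. Foxi1 was the only member whose log2 values spread less under the knockout label (SD 0.38) than in wild type (0.41), and its log2 fold change was -0.04 (SE 0.27, 95% interval -0.66 to 0.58, limma adjusted p = 0.966).

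The ammonia transporters had the widest spread between labelled-knockout libraries 1 and 3. Rhcg (chromosome 7, 79593363 to 79617657, minus strand) had 2586, 1315 and 272 normalized counts in labelled-knockout libraries 1 to 3, against 1062, 775 and 1175 in wild-type libraries 1 to 3. Library 1 was 2.58-fold above the wild-type mean and library 3 was 3.70-fold below it, so the means were 1391 ± 1159 under the knockout label and 1004 ± 206 in wild type (SD, n = 3 each). The difference between labels was -0.02 on the log2 scale with a 95% interval of -1.88 to 1.84 (SE 0.78, limma adjusted p = 0.996). Rhbg (chromosome 3, 88242874 to 88254709, minus strand) had 235, 111 and 20.6 normalized counts in labelled-knockout libraries 1 to 3, against 151, 107 and 168 in wild-type libraries 1 to 3. The value of library 3 rests on 20 reads (95% exact Poisson interval 12.2 to 30.9 reads, counting error only), and its upper bound of 31.8 normalized counts was below every other library. Rhbg averaged 122 ± 108 under the knockout label and 142 ± 31.5 in wild type (SD, n = 3 each), or -0.76 in log2 fold change (SE 0.80; limma adjusted p = 0.765), which was -0.22 with edgeR and with DESeq2. The annotated gene Gm38392 overlaps Rhbg on the same strand, with 1190 exonic bases in common (1193 bases at 99.9% identity between transcripts). It was listed at 0 to 3.09 normalized counts, so reads that fit both may be missing from Rhbg.

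The test across all genes called none of the 8 with limma, where 0.0046% of genes were called. The count with edgeR was 0 of 8 (0.00628% of genes) and with DESeq2 also 0 of 8 (1.95% of genes, 1.3% in the lower direction). At an unadjusted limma p under 0.05 there was 1 member, Atp6v1g3, in the lower direction, against 6.14% of genes in that direction and 10.1% in either. Libraries of the labels did not separate for any of the 8, while 17.7% of tested genes had no overlap, 8.27% with the labelled knockout higher and 9.43% with it lower. The median log2 fold change was -0.06 over the 8 genes and -0.001 over all tested genes. The median over the 8 fell to -0.58 when labelled-knockout library 1 was left out and came to 0.30 when library 3 was, so its sign depended on which of them was kept. Within the labels, the SD of log2 values was larger under the knockout label for 7 of the 8 genes (67.5% of tested genes), with medians of 0.83 under the knockout label and 0.31 in wild type. Over all tested genes these medians were 0.47 under the knockout label and 0.30 in wild type. Over tested genes at or above the lowest mean of the 8 they were 0.28 under the knockout label and 0.17 in wild type, with 70.2% of genes larger under the knockout label.

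**Figure D2:**
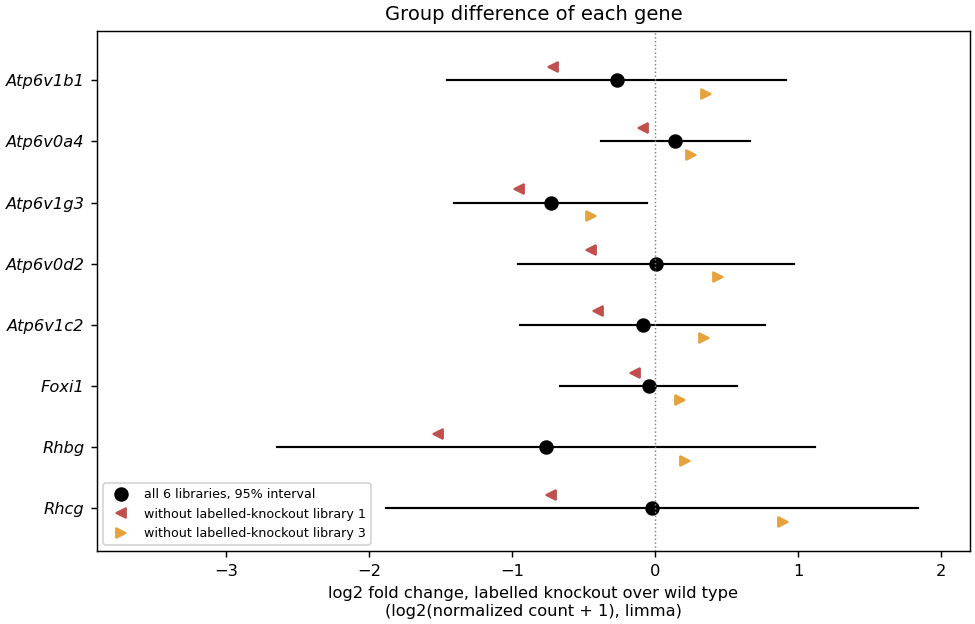
Log2 fold change of labelled knockout over wild type for each gene, with its 95% interval (black) and the value after leaving out labelled-knockout library 1 or 3. Only the interval of Atp6v1g3 (-1.40 to -0.05) does not reach 0, and leaving out library 3 turns Atp6v1b1, Atp6v1c2, Foxi1, Rhbg and Rhcg to positive values.

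Set against exon length, the order of the levels was the same in the means of both labels. Atp6v0a4 led with 854 ± 245 normalized counts per kilobase under the knockout label and 761 ± 131 in wild type (SD, n = 3 each). Rhcg followed with 623 ± 519 under the knockout label and 450.0 ± 92.4 in wild type, then Atp6v1g3 with 266 ± 88.4 under the knockout label and 435 ± 118 in wild type. Next came Atp6v1b1, Foxi1, Atp6v0d2 and Atp6v1c2, and Rhbg was lowest with 63.1 ± 55.6 per kilobase under the knockout label and 73.5 ± 16.3 in wild type. Of the 1937 exonic bases of Rhbg, 1190 are shared with Gm38392, so reads there may be uncounted and the place of Rhbg is uncertain. Wild-type ranges were separate between Atp6v0a4 and Rhcg, between Atp6v1g3 and Atp6v1b1, and between Atp6v1c2 and Rhbg, while the other neighbours overlapped. Single libraries departed from this order except labelled-knockout library 2 and wild-type library 1. In labelled-knockout library 3 Foxi1 (129 per kilobase) stood above Rhcg (122) and Atp6v1b1 (82.9). In labelled-knockout library 1 Rhcg (1159) stood above Atp6v0a4 (1137), in wild-type library 2 Atp6v1g3 (550.1) above Rhcg (347), and in wild-type library 3 Foxi1 (246) above Atp6v1b1 (238).

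Ratios between members set their proportions side by side. All 28 pairs were compared per kilobase within each library, and the labels did not overlap in 2 of them (7.14%). For single tested genes the share was 17.7%, but the pairs reuse the same genes and no share over other gene pairs was taken. The pairs below therefore only describe these libraries. Rhbg over Rhcg was 0.105, 0.0976 and 0.0873 in labelled-knockout libraries 1 to 3, against 0.164, 0.160 and 0.165 in wild-type libraries 1 to 3. The printed values lay close together within each label, although both genes varied 11.4-fold and 9.52-fold under the knockout label. The log2 difference between the labels was -0.76. In labelled-knockout library 3 Rhbg rests on 20 reads, with an exact Poisson interval of 12.6 to 31.8 normalized counts (counting error only). The value of 0.0873 is therefore imprecise, and whether Rhbg over Rhcg is steady under the knockout label is uncertain. The size of this ratio rests on the count of Rhbg, from which reads shared with Gm38392 may be missing. The second pair was Atp6v1g3 over Atp6v0d2, at 1.21, 1.88 and 2.06 in labelled-knockout libraries 1 to 3, against 3.36, 2.82 and 2.30 in wild-type libraries 1 to 3. Absence of overlap by itself fixes the exact two-sided permutation p at 0.1, the smallest possible with 3 against 3. The p of both pairs therefore only restates how they were picked, and the adjusted p over 28 pairs was 1.

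**Figure D3:**
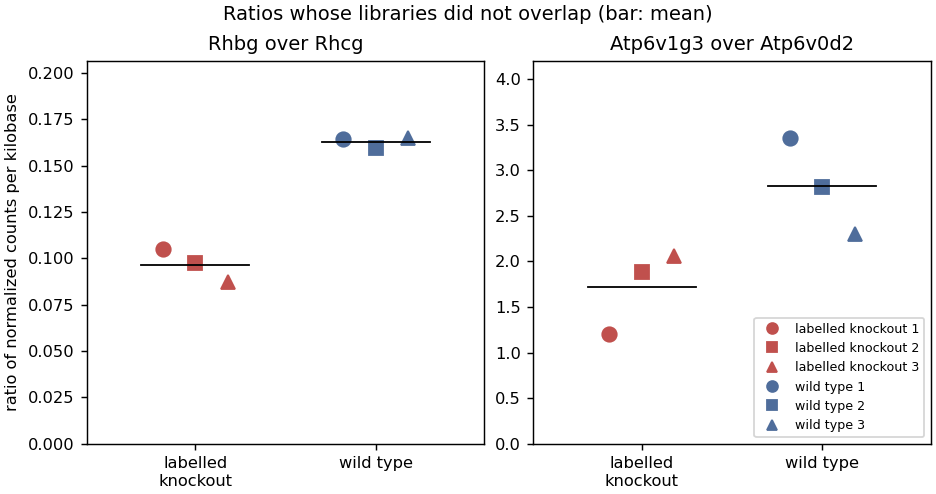
Ratio of normalized counts per kilobase in each library for the pairs without overlap between labels, labelled knockout left and wild type right, with the bar at the mean. Rhbg over Rhcg averages 0.0965 under the knockout label and 0.163 in wild type, and Atp6v1g3 over Atp6v0d2 averages 1.72 under the knockout label and 2.83 in wild type.

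Most cells build the pump from other forms of these subunits, and those did not follow the pattern. Among 18 common subunits and accessory proteins, labelled-knockout library 3 was lowest for 2 and library 1 highest for 5, and limma called 0, edgeR 0 and DESeq2 0. At an unadjusted limma p under 0.05 there were 2 higher and 0 lower (3.94% and 6.14% of tested genes). Their median log2 fold change was -0.0006. Atp6v1b2, the B2 form, had 10331, 7139 and 10737 normalized counts in labelled-knockout libraries 1 to 3, against 6505, 5754 and 7532 in wild-type libraries 1 to 3 (log2 fold change 0.50, SE 0.21, limma adjusted p = 0.475). Atp6v0e2, a small V0 subunit, was above every wild-type value in each labelled-knockout library, with 732, 792 and 798 normalized counts under the knockout label, whereas the wild-type libraries had 511, 434 and 647 (0.56, SE 0.19, limma adjusted p = 0.421). Atp6v1f and Atp6v0e lay below every wild-type value in each labelled-knockout library, at 2727 to 2784 against 2860 to 3858 normalized counts in wild type for Atp6v1f, and at 2068 to 2599 against 2601 to 2801 for Atp6v0e. These 3 of 18 (16.7%) compare with the 17.7% of all tested genes without overlap. The log2 fold changes of the other common forms were 0.19 for Atp6v0a1, 0.20 for Atp6v0d1, 0.04 for Atp6v1c1 and -0.42 for Atp6v1g1, and none passed limma.

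The share of the intercalated form within its subunit family, on the per-kilobase scale, puts both together. B1 made up 15.8%, 15.7% and 3.94% of B1 plus B2 in labelled-knockout libraries 1 to 3, against 17.0%, 17.0% and 14.3% in wild-type libraries 1 to 3. Labelled-knockout library 3 was also lowest for G3 (6.82%), d2 (5.33%) and C2 (12.9%), whose wild-type shares were 10.9% to 16.0%, 9.25% to 14.6% and 21.5% to 27.8%. The a4 share of its family was 56.0%, 49.0% and 45.8% in labelled-knockout libraries 1 to 3, against 52.5%, 45.9% and 51.8% in wild-type libraries 1 to 3, so library 3 was lowest there too, by less than 0.1 percentage points. Exact two-sided permutation tests of the 5 shares between the labels gave p of 0.4 to 1, and the adjusted p over the 5 was 1 for each.

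**Figure D4:**
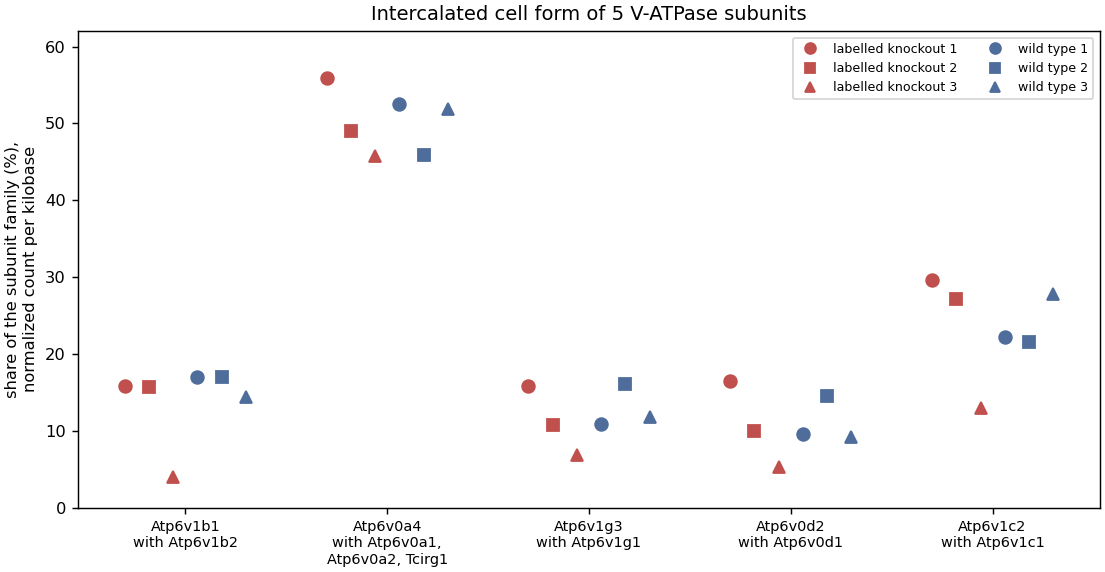
Share (%) of each intercalated cell subunit within the named forms of that subunit, from normalized counts per kilobase, in each library. The B1 share is 3.94% in labelled-knockout library 3 and 14.3% to 17.0% in the other 5 libraries, while the a4 share runs from 45.8% to 56.0%.

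Other genes of intercalated cells had the same low library. Of 18, labelled-knockout library 3 was lowest for 17 (16.4% of tested genes) and library 1 highest for 10 (28.4%). Slc4a9 was the exception for library 3. That library was also lowest for 8 of 12 principal cell genes and 8 of 10 thick limb and distal tubule genes, so this was not particular to intercalated cells. The chloride and bicarbonate exchanger Slc4a1 (AE1, type A cells) had 251, 170.4 and 18.5 normalized counts in labelled-knockout libraries 1 to 3, against 196, 105 and 206 in wild-type libraries 1 to 3. Erythroid cells also express Slc4a1, and the sum of 9 erythroid genes was 13371, 916 and 801 in labelled-knockout libraries 1 to 3, against 2805, 676 and 1443 in wild type; 7 of the 9 were highest in library 1, and their part in the level of Slc4a1 was not tested. Pendrin (Slc26a4, type B cells) had 2619, 918 and 434 normalized counts in labelled-knockout libraries 1 to 3, against 726, 614 and 1138 in wild type. Carbonic anhydrase 2 (Car2), which supplies protons and bicarbonate, was even, at 8428, 7262 and 6801 in labelled-knockout libraries 1 to 3 against 7036, 7050.2 and 7728 in wild type (log2 fold change 0.04, SE 0.16, limma adjusted p = 0.951). The list had a median log2 fold change of -0.18, which came to 0.18 when labelled-knockout library 3 was left out and to -0.41 when library 1 was. In the list 0 were called by limma or edgeR and 1 was called by DESeq2. At an unadjusted limma p under 0.05, 1 was higher and 0 lower (3.94% and 6.14% of tested genes). Slc26a7, another anion exchanger, was at 10.3 to 14.5 under the knockout label and 19.3 to 26.7 in wild type (-0.86, limma adjusted p = 0.541), and Atp12a, a proton-potassium pump, at 0 to 6.68 under the knockout label and 5.85 to 10.2 in wild type (-1.58, limma adjusted p = 0.549).

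Slc4a9, the basolateral exchanger AE4 of type B cells, stood out from that list. It had 6302, 2157 and 1706 normalized counts in labelled-knockout libraries 1 to 3, against 940.3, 819 and 1125 in wild-type libraries 1 to 3. Every labelled-knockout library lay above every wild-type one, library 3 included, which also held for 8.27% of tested genes. In the list of 18, 1 gene was without overlap in each direction, Slc4a9 higher and Slc26a7 lower. Together they are 11.1% of the list, against 17.7% of tested genes. The log2 fold change was 1.58 (SE 0.46, 95% interval 0.49 to 2.67), which did not pass limma (adjusted p = 0.391) or edgeR (adjusted p = 0.358) and passed DESeq2 (adjusted p = 0.00891; 0.647% of genes were called higher by DESeq2). Leaving out labelled-knockout library 1 gave 1.01, and leaving out any other single library gave 1.47 to 1.95.

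Neighbouring cells and segments show how far the pattern reached. Principal cells, which share the collecting duct, had labelled-knockout library 3 lowest for 8 of 12 genes and library 1 highest for 7, and their vasopressin-regulated water channel Aqp2 had 13446, 8087 and 937 normalized counts in labelled-knockout libraries 1 to 3, against 6153, 5076 and 8647 in wild type. The median log2 fold change of the principal cell list was -0.18, but 0.46 with labelled-knockout library 3 left out, -0.43 and -0.61 with libraries 1 and 2 left out, 0.16 with edgeR and 0.04 with DESeq2. The smallest p belonged to Fxyd4 (-0.67), Scnn1g (0.48; 0.06 with library 1 left out) and Kcnj1 (-0.40; 0.19 with library 3 left out). Thick limb and distal tubule genes had library 3 lowest for 8 of 10 (median -0.23, but 0.18 with that library left out and -0.67 with library 1 left out), with the smallest p for Cldn16 (-0.81), Klk1 (-1.33) and Cldn10 (-0.61). Proximal tubule genes had library 3 lowest for only 1 of 10 and library 1 highest for 8 (median 0.79, or 0.34 with library 1 left out), with the smallest p for Slc3a1 (0.81), Slc5a2 (1.01) and Slc22a8 (1.02). Proximal acid-base and ammonia genes had library 3 lowest for 3 of 10 (median 0.18, but -0.11 with library 1 left out), with the smallest p for Slc7a7 (1.39), Slc38a3 (-0.91) and Car4 (0.69). At an unadjusted limma p under 0.05 there were 0 higher and 1 lower among the principal cell genes, 0 and 3 among the thick limb and distal tubule genes, 4 and 0 among the proximal tubule genes, and 1 and 1 among the proximal acid-base genes. None of these genes passed limma or edgeR, and DESeq2 called 1 of them, Slc7a7, a basolateral amino acid transporter (adjusted p = 0.00854). Havcr1, the tubular injury marker KIM-1, ran the other way within the labelled-knockout group at 1321, 22632 and 54545 normalized counts in libraries 1 to 3, against 21442, 29373 and 30696 in wild-type libraries 1 to 3. A second injury marker, Lcn2 (lipocalin 2), had 4180, 7747 and 11101 normalized counts under the knockout label, whereas the wild-type libraries had 14679, 27779 and 18445. Both markers thus rose from labelled-knockout library 1 to library 3, where Havcr1 was above every wild-type library. Lcn2 was below every wild-type library in all 3 labelled-knockout libraries, which held for 9.43% of tested genes. Both markers were chosen after their values were seen, and the part of injury in the spread of the 8 genes was not tested.

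**Figure D5:**
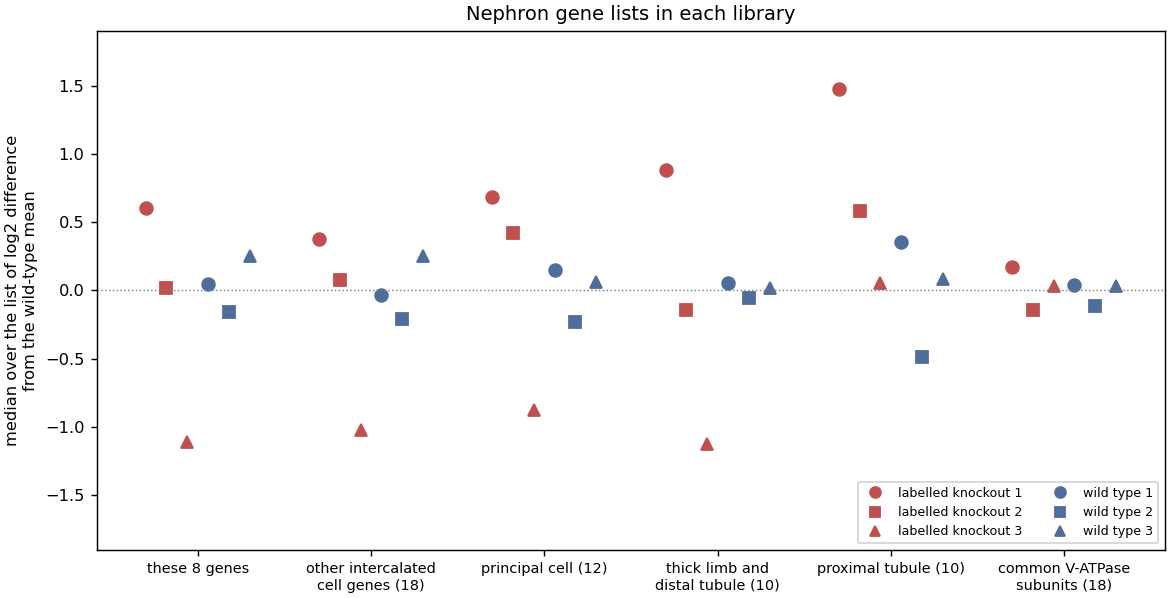
Median over each gene list of the log2 difference from the wild-type mean, in each library. Labelled-knockout library 3 lies at -1.11 for the 8 genes, -1.03 for other intercalated cell genes, -0.88 for principal cells and -1.13 for thick limb and distal tubule, but at 0.05 for the proximal tubule and 0.04 for the common V-ATPase subunits.

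Fat cell, neutrophil and erythroid markers were mostly highest in labelled-knockout library 1, the library in which 6 of the 8 genes were highest, and macrophage markers were not. The sum of 8 fat cell markers was 39710 normalized counts there, against 356 to 2689 in the other 5 libraries, and 7 of the 8 were highest in it, led by p by Ucp1 (log2 fold change 4.84), Cidea (4.51) and Adipoq (3.69). Adipoq and Cidea were at 0 in labelled-knockout library 3 and in wild-type libraries 2 and 3. Neutrophil markers summed to 4061 there and 348 to 1164 elsewhere, with 9 of 10 highest in it and Ngp (3.74), Camp (1.96) and Mpo (1.32) first by p. None of the neutrophil markers was at 0 in library 1, while 1 to 5 were in each other library, Elane in all of them. Among the erythroid genes Ank1 (1.15) and Alas2 (1.47) are named by the same rule, and the erythroid Rh genes Rhag and Rhd were at 0 to 11.1 normalized counts in all libraries. Macrophage genes had library 1 highest for 3 of 10, and their sum was highest in wild-type library 2. Their median log2 fold change was -0.43 (-0.77 with labelled-knockout library 1 left out, -0.28 with wild-type library 2 left out). At an unadjusted limma p under 0.05 there were 0 higher and 3 lower (3.94% and 6.14% of tested genes), Mrc1 (-1.65), C1qa (-0.71) and C1qc (-0.90). DESeq2 called Mrc1 alone (adjusted p = 0.0135). No gene of these lists passed limma, and the part of other cells in the high values of library 1 was not tested.

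The genes whose levels followed the 8 most closely were found by Pearson correlation with the mean of their standardised log2 values over the 6 libraries, among 12137 other genes. In order they were Kalrn (r = 0.995), a guanine nucleotide exchange factor, Ybx2 (0.992), an RNA-binding protein, Lnx1 (0.987), a ubiquitin ligase, Kcnq1 (0.986), a potassium channel, Efhd1 (0.986), a calcium-binding protein, and Aqp3 (0.981), the basolateral water channel of principal cells. Ybx2, for example, had 978, 349 and 83.4 normalized counts in labelled-knockout libraries 1 to 3, against 319, 312 and 398 in wild-type libraries 1 to 3. With labelled-knockout libraries 1 and 3 left out, r over the other 4 libraries ran from 0.730 for Lnx1 to 0.981 for Aqp3. These are descriptions over 6 libraries in which 182 genes reached r above 0.9.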

How the data were processed

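The authors deposited 1 table per library with a normalized count signal per gene. The submitters' processing notes name the build mm10. Aligner, counting program, strand setting and annotation: not given in the sources used here. The values themselves show read counts divided by a size factor: 100% were whole multiples of 1 step per library (tolerance 0.001 reads), so whole reads were recovered, 15518083 to 20356601 per library. Samples were grouped by title, which also gave the replicate numbers. Gene lengths are those of the files and equal the exon union of GENCODE M21 for all 8 genes and for 96.5% of matched identifiers.

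The main test was limma 3.58.1 (trend, robust; R 4.3.3) on log2(normalized count + 1) for the 21721 genes whose mean normalized count reached 1, Benjamini-Hochberg adjusted with a threshold of 0.05. Fold changes on this scale understate the change of low genes. The edgeR 4.0.16 quasi-likelihood test and the DESeq2 1.42.0 Wald test ran on recovered reads as alternatives, beside other pseudocounts (0.1, 5), filters (none, mean of 10), TMM scaling, left-out libraries and a replicate block. All tests were tried on simulated counts first. The members and gene lists were chosen with earlier results of these data known. Named were the 8 genes, Cxcr2, 3 genes by smallest p per list, set paralogs and markers (Slc4a1, Slc26a4, Slc4a9, Car2, Aqp2), and 6 genes by likeness; 1 gene that the rule names is not reported here. Umod, Havcr1, Lcn2, Atp6v1f, Atp6v0e, D630045J12Rik, Tmem213, Pdia6 and Gm38392 were added after their values were seen. Median SE of a log2 fold change was 0.40 for the 8 genes. With 3 against 3 libraries an exact test cannot go below p = 0.1.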

Additional observations from a re-analysis of the deposited data

How the results depend on the processing

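No setting called any of the 8 genes (smallest adjusted p 0.260 over 14 alternatives), and 94 of 112 values kept their direction. The median log2 fold change of the 8 ran from -0.58 to 0.30 with 1 library left out. Direction turned without labelled-knockout library 1 for Atp6v0a4 (-0.081) and Atp6v0d2 (-0.45). It turned without labelled-knockout library 3 for Atp6v1b1 (0.36), Atp6v1c2 (0.34), Foxi1 (0.18), Rhbg (0.21) and Rhcg (0.90). Without wild-type library 1, Atp6v0d2 (-0.09) and Rhcg (0.03) turned, and without wild-type library 3, Atp6v0d2 (-0.07), Atp6v1c2 (0.06), Foxi1 (0.18) and Rhcg (0.10). TMM turned Atp6v0d2 (-0.0051), edgeR turned Atp6v1c2 (0.015) and Rhcg (0.47), and DESeq2 the same 2 genes (0.017 and 0.47). Rhbg was -0.22 with both tools. Atp6v1g3 kept its direction in all 14 (-0.95 to -0.45). Ranges with 1 library left out were -0.71 to 0.36 for Atp6v1b1, -0.08 to 0.27 for Atp6v0a4, -0.45 to 0.44 for Atp6v0d2, -0.40 to 0.34 for Atp6v1c2, -0.22 to 0.18 for Foxi1, -1.52 to 0.21 for Rhbg and -0.73 to 0.90 for Rhcg. Over all genes limma called 1; the count was 5 with a pseudocount of 5, 5 without a filter, 4 after TMM, 316 with DESeq2 and 1 to 6 with 1 library left out. The cause of these changes was not tested. The replicate block gave 16 calls and changed no call among the 8; same-numbered libraries correlated at 0.067, -0.15 and 0.12 in their deviations from the group means, and not every library correlated best with its own number, so the numbers were not taken as pairs. Depth limits Rhbg most, with 20 reads in labelled-knockout library 3. The 95% intervals of the log2 fold change ran from -2.64 to 1.12 for Rhbg and from -1.88 to 1.84 for Rhcg, so the data do not exclude differences inside these intervals.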
